A study of Mus musculus with 8 samples.

Results

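The hair follicle transcription factors described here are 10 genes, Lhx2, Sox9, Foxi3, Tbx1, Nfatc1, Msx2, Dlx3, Gata3, Foxn1 and Cux1, taken by name from 26180 mouse genes with a curated RefSeq transcription start site (TSS). Each was examined for peaks in 3 places: the promoter (1 kb upstream to 100 bp downstream of any curated TSS), the gene body, and the flanks of 50 kb beyond either end of the gene. The material was the whole epidermis of newborn (P0.5) wild-type mice, with no mutant or treated group. Back skin was split with dispase and the epidermal sheet was dissociated into single cells before MOF ChIPseq, in which chromatin is fixed, sheared and pulled down, or Cut&Run, in which a nuclease tethered to the antibody cuts out the bound DNA. The series held 8 samples for 6 antibodies, and peak lists of 4 libraries were used: MOF (17546 peaks), Rfx2 (337), H3K4me3 (27039) and H3K27Ac (30736). With 1 list per antibody there was no replicate error and no test, so every count below describes these libraries, and its exact 95% interval covers counting over genes or peaks only. The lists hold no read counts, and no value below was set against sequencing depth. H3K4me3, H3K27Ac and Rfx2 peaks carried a fold enrichment, the signal at the summit over the background the peak caller estimated, and MOF peaks carried a score used only to rank them within their list. Heights were not compared between lists. The deposit assigns the H3K4me3 list to the repeat library, although its name does not say so, which leaves its source among the H3K4me3 libraries uncertain.

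Hair follicles form where epidermal cells thicken into a placode, grow down into the dermis, set aside stem cells in the bulge and produce the concentric layers of the inner root sheath and hair shaft from a dividing matrix. Lhx2, Sox9, Foxi3, Tbx1 and Nfatc1 act in placodes or in stem cells, and Msx2, Dlx3, Gata3, Foxn1 and Cux1 act mainly in the matrix, shaft and inner root sheath. MOF (Kat8) acetylates lysine 16 of histone H4. H3K4me3 is found at promoters that are active or poised, H3K27Ac at active promoters and enhancers, and Rfx2 binds the X-box motif of ciliary genes. A mark present in few cells and a weak mark in all cells cannot be told apart in these lists.

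The labelled tissue was checked with marker genes, and 5 of the 6 suprabasal genes listed were found in the annotation. H3K4me3 lay at the promoter of 6 of 7 basal keratinocyte genes, 1 of 5 suprabasal genes, 4 of 9 hair follicle keratinocyte genes, 3 of 6 melanocyte genes and 4 of 9 genes of dermal fibroblasts and the dermal papilla. It lay at 0 of 5 immune, 1 of 4 endothelial, 1 of 2 Merkel cell and 1 of 3 Schwann cell genes. H3K27Ac lay at the promoter of 4 of 7 basal, 1 of 5 suprabasal, 4 of 9 hair follicle, 2 of 6 melanocyte, 1 of 3 Schwann cell and 0 of 9 dermal genes, and of none of the immune, endothelial or Merkel cell genes. MOF lay at 1 of 7 basal, 0 of 5 suprabasal, 1 of 9 hair follicle, 1 of 6 melanocyte, 2 of 9 dermal and 1 of 3 Schwann cell genes, and at none of the immune, endothelial or Merkel cell genes. Of all genes, 54.0% had H3K4me3 at the promoter, 44.1% H3K27Ac and 23.7% MOF. The hair follicle and the dermal genes, each at 44.4% for H3K4me3, were below that share, so the counts do not identify the cells. Which cells contributed the peaks at the members was not tested.

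To show the promoters on which the results turn, the RefSeq promoter sequences (GRCm38.p6, the assembly that mm10 names) from 250 bases before to 50 bases from the start on are given for 3 members without MOF. Capitals mark the bases under an H3K4me3 peak. Lhx2 has a pair of curated starts, and an H3K4me3 peak reached the promoter window of the downstream one only, ending 43 bp before that start.
Lhx2, upstream start, chr2:38339031-38339330, plus strand: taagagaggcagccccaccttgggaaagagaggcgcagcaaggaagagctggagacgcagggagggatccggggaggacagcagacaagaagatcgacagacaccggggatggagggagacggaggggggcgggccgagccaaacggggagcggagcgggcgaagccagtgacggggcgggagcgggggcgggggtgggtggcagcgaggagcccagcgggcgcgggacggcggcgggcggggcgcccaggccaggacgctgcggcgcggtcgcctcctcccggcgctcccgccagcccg
Lhx2, downstream start, chr2:38351058-38351357, plus strand: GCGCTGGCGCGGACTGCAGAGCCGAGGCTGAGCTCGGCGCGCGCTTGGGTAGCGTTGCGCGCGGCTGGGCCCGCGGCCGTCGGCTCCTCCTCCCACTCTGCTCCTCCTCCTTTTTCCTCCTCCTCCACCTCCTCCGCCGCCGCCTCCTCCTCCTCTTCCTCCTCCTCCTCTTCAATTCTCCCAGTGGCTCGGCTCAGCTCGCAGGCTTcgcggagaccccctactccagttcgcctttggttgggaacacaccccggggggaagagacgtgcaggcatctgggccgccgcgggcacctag
Foxi3, chr6:70956356-70956655, plus strand: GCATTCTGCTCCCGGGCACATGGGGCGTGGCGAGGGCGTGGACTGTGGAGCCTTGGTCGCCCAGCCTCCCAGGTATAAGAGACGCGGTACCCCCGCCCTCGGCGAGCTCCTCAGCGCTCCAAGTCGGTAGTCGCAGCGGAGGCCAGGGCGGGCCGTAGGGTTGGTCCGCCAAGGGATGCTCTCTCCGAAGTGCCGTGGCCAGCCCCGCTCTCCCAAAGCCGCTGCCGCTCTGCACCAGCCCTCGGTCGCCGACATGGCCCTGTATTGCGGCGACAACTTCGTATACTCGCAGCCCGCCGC
Msx2, chr13:53472731-53473030, minus strand: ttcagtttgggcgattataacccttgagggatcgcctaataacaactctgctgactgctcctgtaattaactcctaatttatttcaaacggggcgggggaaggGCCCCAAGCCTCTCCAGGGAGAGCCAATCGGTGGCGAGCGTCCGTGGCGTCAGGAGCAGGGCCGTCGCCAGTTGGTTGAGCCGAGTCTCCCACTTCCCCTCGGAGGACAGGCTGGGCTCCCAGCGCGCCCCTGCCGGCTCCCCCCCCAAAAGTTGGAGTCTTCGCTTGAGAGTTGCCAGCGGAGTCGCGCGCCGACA
The H3K4me3 peak covered 300 of these bases at Foxi3, 197 at Msx2 and 208 at the downstream start of Lhx2, and 0 at its upstream start. H3K27Ac covered 52 bases at the upstream start of Lhx2, 124 at the downstream start, 300 at Foxi3 and 0 at Msx2.

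The promoters with an entry were rich in CpG dinucleotides. The table held 9 promoters of 7 members (Lhx2, Foxi3, Msx2, Gata3, Foxn1, Cux1 and Tbx1). Sox9, Dlx3 and Nfatc1 are named only. The ratio of observed to expected CpG ran from 0.272 at Foxn1 to 0.885 at the upstream start of Lhx2, against a median of 0.384 over 32851 promoters. Of the 7 members, 6 exceeded 0.6 at 1 start or more, with Foxn1 as the exception, and 48.8% of the 19528 genes with an entry and a curated start did so. The GC box, GGGCGG on either strand, was present in 6 of the 9 promoters and in 35.7% of all promoters. The upstream start of Lhx2 held it at positions -123, -76, -64 and -15 relative to the start, and Msx2 held it at -160. The homeodomain core TAATTA was found at Msx2 (-187) and Foxn1 (-29), against 5.29% of all promoters. The forkhead core GTAAACA (3.65% of all promoters) was found at Cux1 only, and the NFAT core GGAAAA (23.4%) at the downstream start of Lhx2 and at Cux1. The Sox core AACAATG (3.78%), the GATA core AGATAA (11.2%), the T-box core GGTGTGA (3.98%), the TCF/LEF core CTTTGAA (5.14%), TATAAA (13.6%) and GTTGCCAT, the first bases of the X-box (1.35%), were in 0 of the 9. A match is a description of these letters and not of binding.

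H3K4me3 lay at the promoter of all 10 factors (100%, exact 95% interval 69.2 to 100%), against 54.0% of all genes. Among genes with an observed to expected CpG ratio over 0.6 at a start in the sequence table, 91.8% had H3K4me3 there (6 of 6 members), and 78.9% had H3K27Ac (4 of 6). MOF was at 43.9% of them and at 0 of the 6 members. That count cannot be set beside the share, since Dlx3 and Nfatc1, the members with MOF, have no entry in that table. The contrast with all genes rested on the weaker peaks of the list. Among the 50% of H3K4me3 peaks with the highest −log10 q-value, 4 of 10 members had one at the promoter, against 45.3% of all genes, and among the 50% with the highest fold enrichment 0 of 10 did, against 37.5%. H3K27Ac lay at 7 of 10 promoters (34.8 to 93.3%), all but Msx2, Tbx1 and Nfatc1, against 44.1% of all genes. MOF lay at 2 of 10, Dlx3 and Nfatc1 (2.52 to 55.6%), against 23.7% of all genes, and Rfx2 at 0 of 10 (0 to 30.8%), against 1.21%. The intervals for H3K27Ac, MOF and Rfx2 held the share of all genes, and that for H3K4me3 did not, though it held the 91.8% of the CpG-rich genes. The 10 genes were chosen by name, so an interval is not a test of a difference. Among genes with H3K4me3 at the promoter, 42.0% also had MOF. Where H3K27Ac was present as well the share was 48.8%, and 1 of the 7 members of that class, Dlx3, had MOF. Where H3K27Ac was missing it was 14.8%, and 1 of the 3 members, Nfatc1, had MOF. The combination of H3K4me3 and H3K27Ac without MOF or Rfx2, shared by Lhx2, Sox9, Foxi3, Gata3, Foxn1 and Cux1, was found at 5666 genes. H3K4me3 alone, as at Msx2 and Tbx1, was found at 2422 genes, the pattern of Dlx3 at 5306 and that of Nfatc1, MOF with H3K4me3, at 421.

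In the gene body, H3K4me3 was present in 10 of 10 members (59.1% of all genes), H3K27Ac in 9 of 10 (all but Tbx1; 50%), MOF in 4 of 10 (Lhx2, Dlx3, Cux1 and Nfatc1; 12.2 to 73.8%, against 35.7%) and Rfx2 in 0 of 10 (1.02%). With 50 kb added at either end, H3K4me3 and H3K27Ac reached 10 of 10 (79.9% and 74.5% of all genes), MOF 9 of 10 (55.5 to 99.7%, against 73.1%) and Rfx2 0 of 10 (4.98%). Sox9 was the member without a MOF peak in that span. The span held 3 to 11 H3K4me3 peaks per member (median 7, against 3 over all genes), 1 to 12 H3K27Ac peaks (median 4, against 3) and 0 to 7 MOF peaks (median 2, against 1). All genes here include those without H3K4me3 at the promoter, which every member had. The span includes the gene, so it is longer at long genes such as Cux1 (319456 bp).

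**Figure D1:**
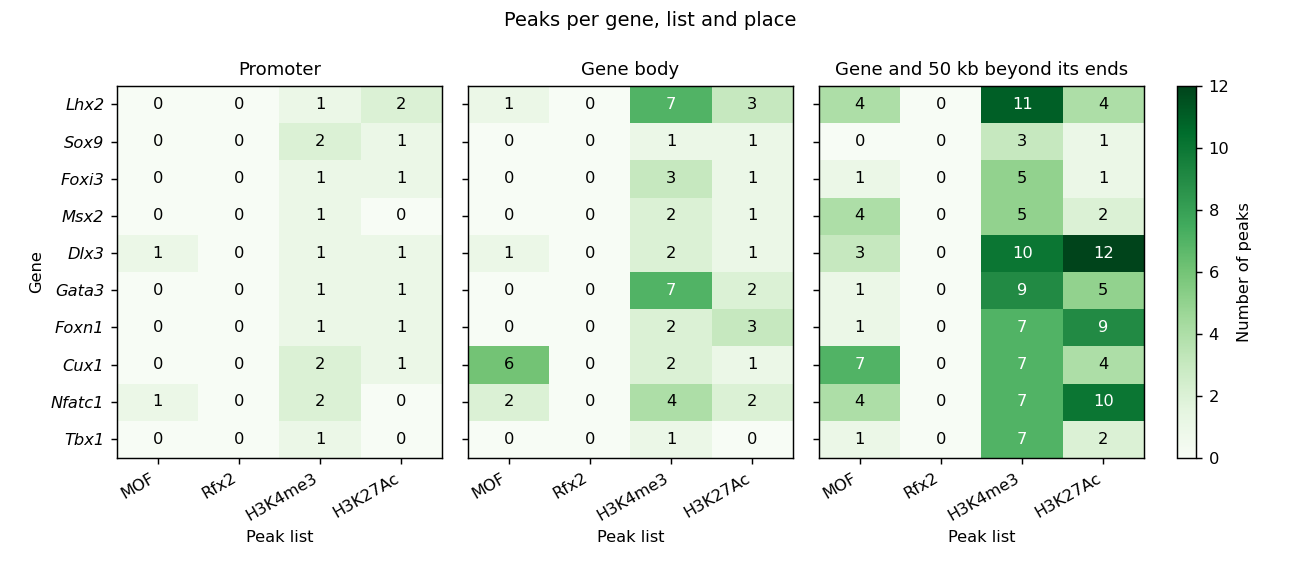
Number of peaks of each list (columns) at each of the 10 genes (rows), at the promoter, in the gene body and in the gene with 50 kb beyond its ends; the shade follows the number. The H3K4me3 column is filled for every gene, the Rfx2 column is 0 throughout, and MOF at the promoter is 1 at Dlx3 and at Nfatc1 and 0 elsewhere.

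Among the placode and stem cell factors, Lhx2, a LIM homeodomain factor that maintains follicle stem cells (chr2:38339271-38369737), had the most scattered H3K4me3. Its gene body held 7 H3K4me3 peaks with fold enrichments from 1.8 to 5.0. The promoter peak, 252 bp at the downstream start, had the lowest of these, 1.8, which exceeded 0.189% of the list. A peak of 1475 bp with a fold of 2.9 was centred 1267 bp downstream of the upstream start. H3K27Ac peaks of 3.06-fold and 3.49-fold enrichment lay at the upstream and downstream starts. The strongest MOF peak of the locus, 585 bp with a score of 1100 (above 90.5% of the MOF list), lay over an exon at the 3' end of the gene, 17384 bp from the downstream start, and overlapped an H3K4me3 peak of 5.0-fold enrichment. The other 3 MOF peaks of Lhx2 lay upstream in intergenic DNA with scores of 379, 392 and 709, and none overlapped either mark.

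Sox9, the HMG-box factor that specifies follicle stem cells (chr11:112782210-112787757), had a continuous H3K4me3 peak of 2832 bp across its start with a fold of 3.87, and a smaller one of 384 bp upstream with a fold of 2.04. H3K27Ac covered 1175 bp within the larger peak, at 4.8-fold. The single other peak within 50 kb was an H3K4me3 peak of 1026 bp downstream. MOF came no nearer to the start than 53641 bp, with a score of 494. Foxi3, a forkhead factor downstream of ectodysplasin signalling in the placode (chr6:70956606-70961066), had a like arrangement in 3 H3K4me3 peaks of 588, 2012 and 255 bp, with folds of 3.4, 3.39 and 1.98. They were separated by gaps and together covered 2855 bp. H3K27Ac spanned 1374 bp there at 5.58-fold, and 1 MOF peak (score 478) lay 33317 bp away with neither mark. Sox9 and Foxi3 each had 1 H3K27Ac peak within 50 kb, that at the promoter.

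Tbx1, a T-box factor of follicle stem cells (chr16:18580979-18590671), had the least marked promoter. Of its 3 curated starts only the most upstream one had H3K4me3, a peak of 220 bp with a fold of 3.9, and the promoter and gene body held no H3K27Ac. The nearest H3K27Ac peak began 37917 bp from a start. MOF lay 53633 bp from the most downstream start, in an intron of Gnb1l, as a peak of 206 bp with a score of 899 that overlapped an H3K4me3 peak of 7.67-fold enrichment.

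Nfatc1, the calcineurin-dependent factor that keeps bulge stem cells quiescent, lies on chromosome 18 and has a pair of curated starts. H3K4me3 peaks of 419 bp (3.43-fold) and 745 bp (3.12-fold) lay at the downstream and upstream promoters. A MOF peak of 891 bp with a score of 582, near the median of the list, overlapped the former, and began 328 bp upstream of the downstream start. H3K27Ac was missing from both promoters, and a narrow peak of 272 bp with a fold of 7.77 (above 87.8% of the list) lay 2333 bp upstream of the upstream start. That peak overlapped H3K4me3 of 2.74-fold enrichment and a MOF peak of 1194 bp with a score of 363.

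Among the factors of the matrix, shaft and inner root sheath, Dlx3 (chr11:95120117-95125296), a homeodomain factor of the hair shaft and root sheath, was the member with MOF, H3K4me3 and H3K27Ac at 1 promoter. Its MOF peak of 463 bp was centred 1 bp from the start with a score of 423, above 17.4% of the MOF list and 11.7% of the genes with MOF at the promoter. H3K4me3 peaks of 1505 bp (4.29-fold) and 1171 bp (3.75-fold) followed into the gene, and H3K27Ac covered 917 bp at 3.98-fold. A further pair of MOF peaks was centred 1732 bp upstream (score 383, neither mark) and 6555 bp downstream (score 688, overlapping H3K27Ac of 4.39-fold enrichment). Msx2, a homeodomain factor of the matrix (chr13:53466881-53472780), had H3K4me3 of 1423 bp and 4.25-fold at its start, while its H3K27Ac peak of 211 bp (4.29-fold) lay 338 bp inside the gene, outside the promoter window. The widest of the MOF peaks within 50 kb of a member was the 1614 bp region 2320 bp upstream of Msx2 with a score of 500, which enclosed an H3K4me3 peak of 472 bp and 5.26-fold enrichment.

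Gata3, a zinc finger factor required for the inner root sheath (chr2:9857078-9887953), had the lowest promoter value. Its H3K4me3 peak of 434 bp had a fold of 1.71, which exceeded 0.118% of the list, and its H3K27Ac peak of 208 bp had a fold of 2.49. In the gene it had 7 H3K4me3 peaks of 239 to 1253 bp and 1.54-fold to 2.39-fold enrichment, and no peak covered the curated start itself. The tallest H3K4me3 peak nearby, 10-fold and 1152 bp, lay at the start of the neighbouring transcript 9230102O04Rik, 10916 bp upstream. The 1 MOF peak of Gata3 (score 494) lay 50419 bp downstream of the start and overlapped the strongest distal H3K27Ac peak of the locus.

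Foxn1, the forkhead factor lost in nude mice (chr11:78357577-78386783), had the tallest H3K4me3 of the 10 promoters, 6.0-fold over 2131 bp, with H3K27Ac of 5.96-fold over 876 bp at the start and 4.7-fold over 464 bp in an intron. Its only MOF peak (996 bp, score 353) was at the promoter of a neighbour, Pigs, 57508 bp from the Foxn1 start, with both marks. Cux1, a homeodomain factor of the inner root sheath whose gene is 319456 bp long (chr5:136248135-136567590), had H3K4me3 of 5.13-fold (1025 bp) and 3.55-fold (1132 bp) at its 2 starts and H3K27Ac of 6.75-fold (793 bp) at the upstream one, the highest of the 7 promoters with that mark. It had 6 MOF peaks in its introns, 436 to 1246 bp wide with scores from 371 to 916, the nearest of them 33273 bp from a start, and none overlapped either mark.

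**Figure D2:**
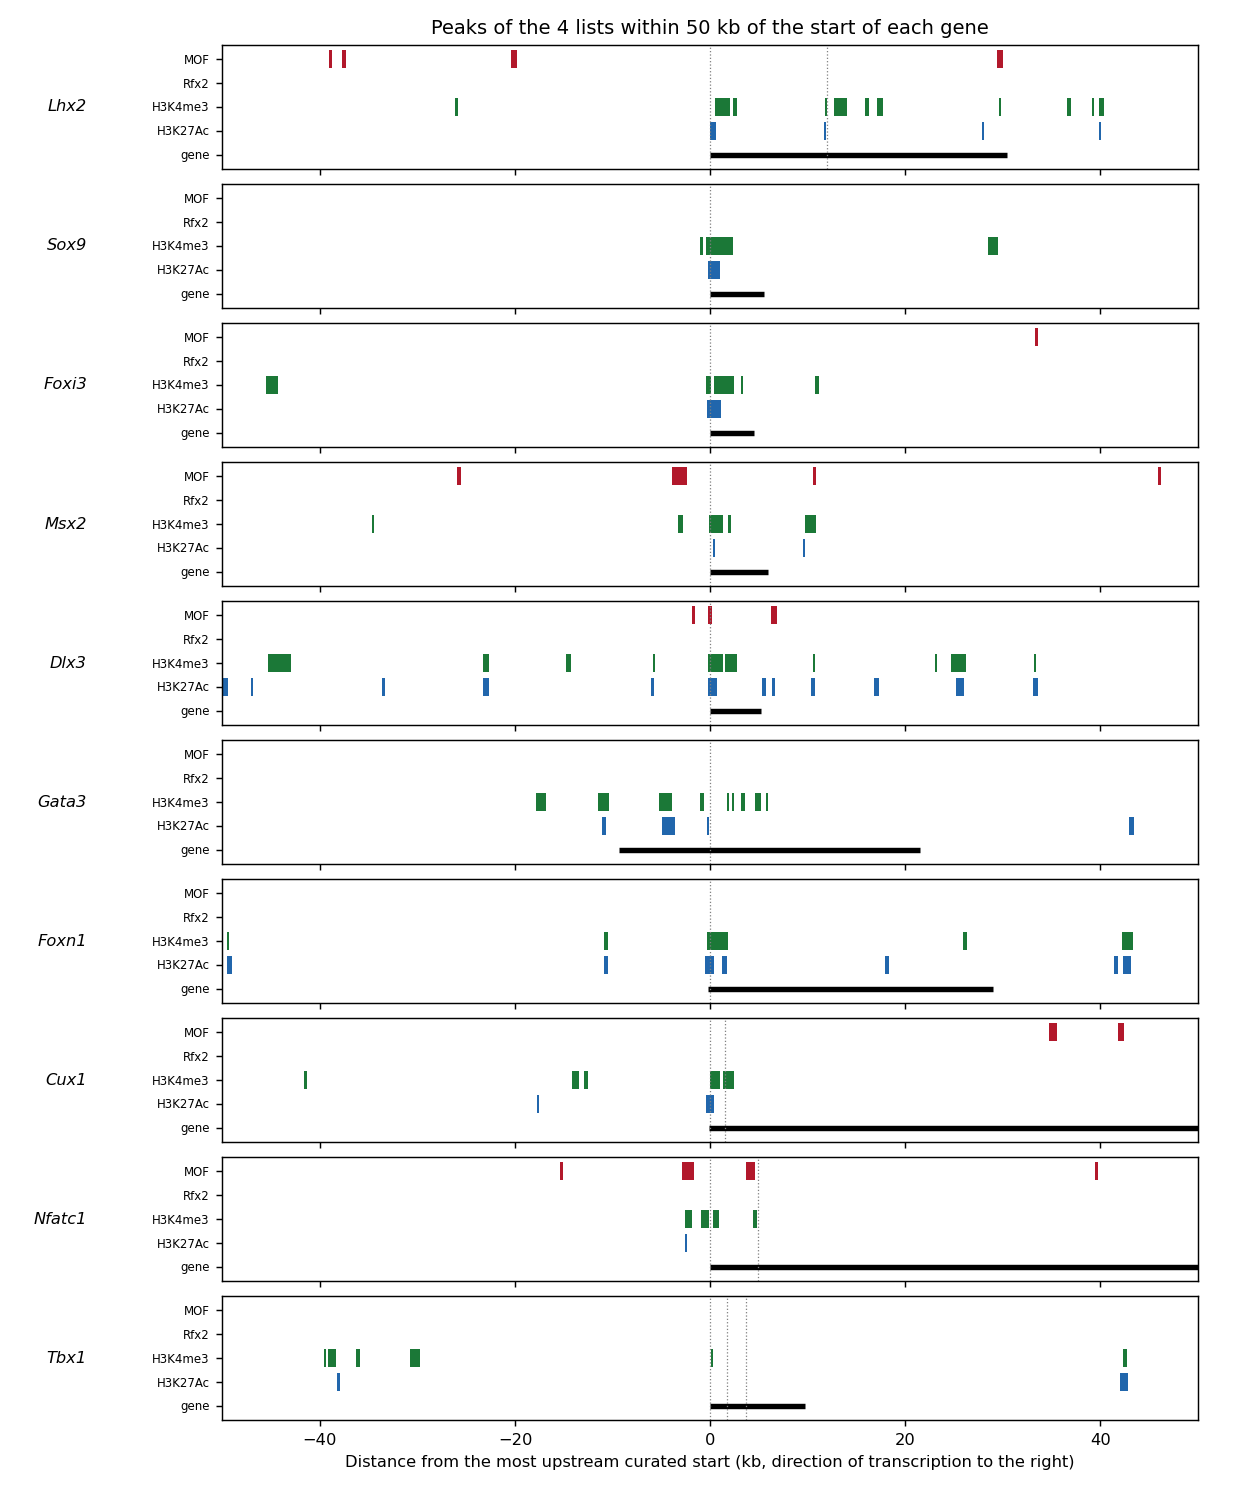
Peaks of the 4 lists (coloured blocks) within 50 kb of the most upstream curated start of each gene, in the direction of transcription; the black bar is the gene and dotted lines are curated starts. H3K4me3 extends mainly into the gene at Sox9, Foxi3, Dlx3 and Foxn1, is broken into separate peaks at Lhx2 and Gata3, and MOF meets a start only at Dlx3.

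H3K4me3 at the members had low fold enrichment over a long covered length. The highest fold enrichment at the promoter ran from 1.71 to 6.0 with a median of 3.89, and 10 of 10 members lay below the median of 8.04 over 14132 genes with H3K4me3 there (25th to 75th percentile 6.18 to 10). The −log10 q-value had a median of 17.2, against 47.5. Conversely, H3K4me3 peaks covered a median of 2596.5 bp of promoter and gene body (220 bp at Tbx1 to 4960 bp at Lhx2), against 1491 bp over the same genes, and 9 of 10 members lay above that. The length was the sum over a median of 2 peaks, against 1. The widest single peak of each member ran from 1132 bp at Cux1 to 2832 bp at Sox9 in 8 members, and was 745 bp at Nfatc1 and 220 bp at Tbx1. The list median of 764 bp is over all peaks, those away from starts included. The widest peak per gene was not computed for other genes, so single peaks of the members cannot be called wider. With the 50% of peaks with the highest −log10 q-value the median length of the members was 0 bp. Within 5 kb of the most upstream start the members had a median of 1848 bp downstream and 389 bp upstream, against 893 and 476 bp over all genes with H3K4me3. The share of covered bases downstream of the start was above the gene median of 65.3% in 8 of 10 members. The exceptions, Gata3 (45.9%) and Nfatc1 (41.3%), had H3K4me3 on both sides. The most upstream start itself lay under an H3K4me3 peak in 6 of 10 members, against 86.5% of genes, and was uncovered at Lhx2, Gata3, Nfatc1 and Tbx1.

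Over all genes the height fell as the covered length rose, so the members were set beside genes of like length. The median highest fold was 9.27 for genes with up to 1 kb of H3K4me3 within 5 kb of the start, 8.74 for 1 to 2 kb, 5.6 for 2 to 3 kb and 3.74 for 3 to 4 kb. Of the members, 7 fell in the class of 2 to 3 kb, and 1 each in the others. Within its own class, Foxn1 exceeded 62.6% of genes, Sox9 56.0% and Cux1 34.6%. A further 6 lay in the lowest 25% of their class, from 14.6% at Dlx3 and 13.7% at Msx2 down to 0.037% at Gata3. Lhx2 could not be placed in this way, because its promoter peak of 1.8-fold lay at the downstream start and its covered length was counted around the upstream one.

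**Figure D3:**
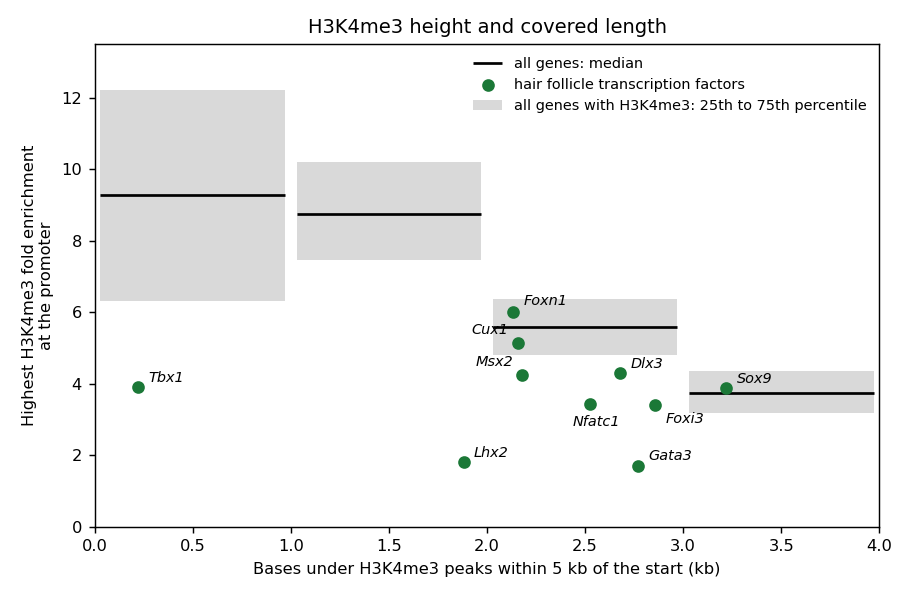
Highest H3K4me3 fold enrichment at the promoter against the bases under H3K4me3 peaks within 5 kb of the most upstream start. Grey boxes are the 25th to 75th percentiles and black lines the medians of all genes with H3K4me3 in classes of 1 kb, and green points are the 10 members; Sox9, Foxn1 and Cux1 lie within the box of their class and the others below it, and the height of Lhx2 is from its downstream start.

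H3K27Ac peaks at the promoters of the members were of low to middling height. In the 7 members with a promoter peak the highest fold ran from 2.49 to 6.75 with a median of 4.8, against 6.72 over 11552 genes, and 6 of 7 lay below that median, with Cux1 above it. The bases under H3K27Ac within 5 kb of the start had a median of 855 over the 10 members and 913 over genes with H3K4me3. The covered length of 5 of 10 members lay below that gene median.

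Distal H3K27Ac peaks, those centred over 2.5 kb from any curated start, numbered 28 within 50 kb of the members (0 to 9 each, median 1.5, against 1 over genes with H3K4me3). Dlx3 and Nfatc1 had 9 each, Foxn1 3, Lhx2 and Gata3 2 each, Msx2, Cux1 and Tbx1 1 each, and Sox9 and Foxi3 had 0. These counts go by distance only, and the span grows with the length of the gene, 106867 bp at Nfatc1. All 9 at Nfatc1 had the start of another gene, Gm41790 or Gm2176, as the nearest curated start. At Dlx3 some lay nearest to Itga3, Dlx4 or Dlx4os. Which gene these peaks act on was not tested. Of the 28, 13 overlapped H3K4me3 (46.4%, 27.5 to 66.1%, against 32.8% of the 17700 distal peaks of the list) and 2 overlapped MOF (7.14%, 0.877 to 23.5%, against 11.2%). Both intervals held the share of the list. They treat every peak as separate, although Dlx3 and Nfatc1 gave 9 each, so they may be too narrow.

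The strongest distal peak of each member differed in height and place. That of Dlx3 had a fold of 8.84, above 93.2% of the list, and lay 33343 bp downstream in an intron of Dlx4os, 7659 bp from the Dlx4 start. Those of Foxn1 (6.02-fold, 49287 bp upstream), Nfatc1 (5.93-fold, in its own intron 52246 bp downstream) and Gata3 (5.59-fold, 50571 bp downstream) exceeded 63.9 to 70.2% of the list. Lhx2 had an intronic peak of 4.81-fold enrichment 15988 bp downstream of a start. Tbx1 (4.06-fold, in an intron of Gnb1l), Msx2 (3.71-fold) and Cux1 (3.71-fold) had lower peaks, which exceeded 27.9%, 17.9% and 17.9% of the list. The 300 bases around the summit are shown for Dlx3, the tallest, with capitals for the bases under H3K4me3, and for Gata3, the 1 strongest distal peak that met MOF, with capitals for the bases under the MOF peak.
Dlx3, chr11:95153224-95153523, plus strand: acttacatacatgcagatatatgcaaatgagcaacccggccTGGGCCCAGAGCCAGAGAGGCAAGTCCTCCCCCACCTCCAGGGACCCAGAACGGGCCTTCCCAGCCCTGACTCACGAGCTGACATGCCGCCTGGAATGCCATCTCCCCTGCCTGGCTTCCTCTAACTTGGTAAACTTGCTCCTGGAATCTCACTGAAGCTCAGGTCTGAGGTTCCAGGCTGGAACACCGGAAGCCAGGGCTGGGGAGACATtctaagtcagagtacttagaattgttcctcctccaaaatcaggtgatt
Gata3, chr2:9827706-9828005, plus strand: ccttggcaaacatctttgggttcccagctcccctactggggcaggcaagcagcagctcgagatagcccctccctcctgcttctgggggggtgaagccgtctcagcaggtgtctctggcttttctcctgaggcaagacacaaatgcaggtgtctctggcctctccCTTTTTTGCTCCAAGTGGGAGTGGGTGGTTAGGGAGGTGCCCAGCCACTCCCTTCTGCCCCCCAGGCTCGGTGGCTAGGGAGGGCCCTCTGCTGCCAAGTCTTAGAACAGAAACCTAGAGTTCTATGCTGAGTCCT
Of the motifs searched, neither stretch held one. Among the other windows, that of Lhx2 held the TCF/LEF core and the GC box, Foxn1 the GC box and Tbx1 the NFAT core, while Msx2 and Cux1 held none, and that of Nfatc1 was not searched.

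Of the 26 MOF peaks within 50 kb of the members, 2 were at a member's promoter and 1 at another promoter (Pigs). Those centred over 2.5 kb from any start numbered 21 (80.8%, 60.6 to 93.4%, against 65.6% of the whole MOF list). H3K4me3 overlapped 8 (30.8%, 14.3 to 51.8%, against 41.5%), H3K27Ac overlapped 5 (19.2%, 6.55 to 39.4%, against 38.6%) and 16 had neither mark (61.5%, 40.6 to 79.8%, against 54.5%). Each of these intervals held the share of the list. The intervals treat every peak as separate, although Cux1 alone gave 7 of the 26, so they may be too narrow. The score was below the list median of 582 in 16 of 26. Their median width was 470 bp, against 562 bp. Scores reached 1420 at a peak 46053 bp downstream of Msx2, with neither mark. No Rfx2 peak lay within 50 kb, and the nearest was between 556397 bp (Nfatc1) and 12121498 bp (Foxi3) from a start. With Rfx2 at so few promoters in all, a share in the members below that of all genes was not detectable with 10 genes.

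Other groups of genes were set beside the members. They were 20 other hair follicle transcription factors, 22 epidermal transcription factors and 29 signalling genes of the follicle, written from general knowledge. Some genes were in more than 1 group. MOF lay at the promoter of 9 of 20 other follicle factors (45.0%, 23.1 to 68.5%), among them the hair keratin regulator Hoxc13 (score 987), Vdr (447), Hr (913), Tcf7l1 (552), Bcl11b (571), Foxc1 (815) and Runx1 (373). Of the epidermal factors it was at 6 of 22 (27.3%, 10.7 to 50.2%), including Grhl2 and Ovol2, and of the signalling genes at 7 of 29 (24.1%, 10.3 to 43.5%), including Edar (score 1038), Ptch1, Smo and Gli3. The interval of the members, 2.52 to 55.6%, overlapped each of these. Hoxc13, Nfib and Ctnnb1 had MOF without H3K4me3 or H3K27Ac in the promoter window, an arrangement that no member showed.

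H3K4me3 lay at 17 of 20, 21 of 22 and 25 of 29 promoters of these groups, and H3K27Ac at 10 of 20, 16 of 22 and 21 of 29, while Rfx2 lay at 0 of each. The other groups had H3K4me3 values near those of the members. The median highest fold was 4.37 in the other follicle factors, 3.93 in the epidermal factors and 4.09 in the signalling genes, against 3.89 in the members. The median covered length, summed over peaks, was 2664, 2841 and 2871 bp, against 2596.5 bp.

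**Figure D4:**
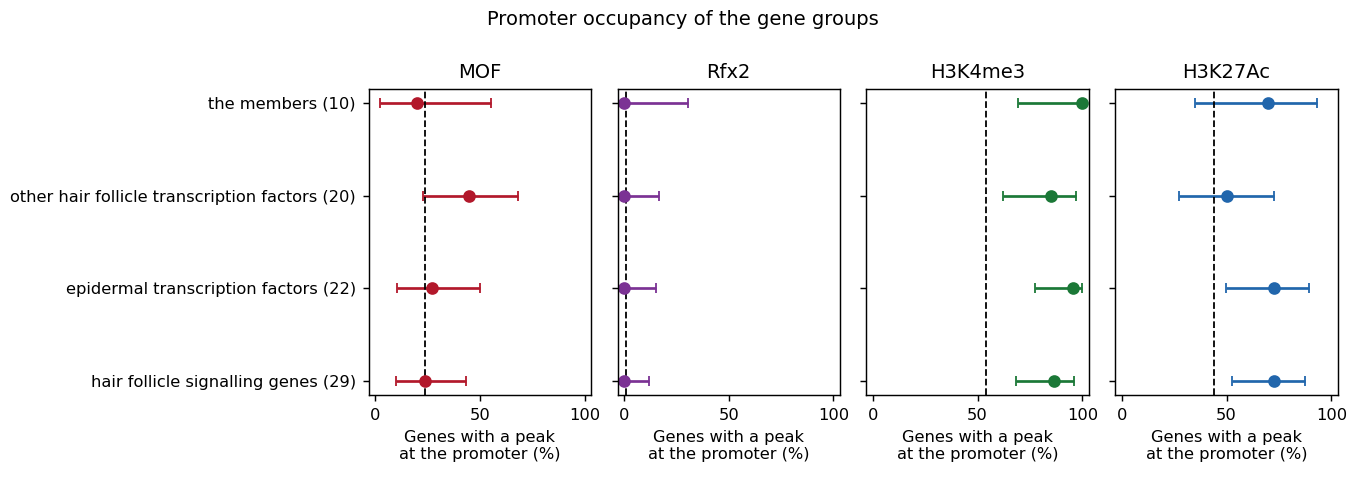
Share of genes with a peak at the promoter in the members and in 3 other gene groups (rows, with the number of genes), for each list. Points are shares, bars are exact 95% intervals and dashed lines are the share of all genes. For MOF, Rfx2 and H3K27Ac the interval of the members holds the dashed line, and for H3K4me3 it lies above it. The genes were chosen by name, CpG content was not matched, and the intervals are not a test.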

How the data were processed

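MOF ChIPseq (single-end) and Cut&Run (paired-end) reads from wild-type P0.5 total epidermis were aligned to mm10 with Bowtie2 and peaks were called library by library with MACS2 by the authors. A control library was not given in the sources used here. The deposited Rfx2, H3K4me3 and H3K27Ac lists gave fold enrichment (a ratio), −log10 p-value and −log10 q-value for each peak, with every q-value below 0.05. The deposited MOF list gave regions with a score, whose scale is not stated, and no fold. It is longer than the call the study describes, so whether it is the final call is unknown. No list held read counts, and the read totals the study states were not used here.

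Positions were used with GRCm38.p6 and curated RefSeq transcripts (26180 genes, 31645 starts). No peak passed a chromosome end. Of the H3K4me3 summits, 53.2% were 1 kb or less from a start. A gene had a peak where the 2 overlapped by at least 1 bp. Intervals are exact (Clopper-Pearson, scipy 1.17.1) and cover counting error only. Nothing was tested, since each antibody had 1 list. Overlaps were checked against bedtools 2.31.1 on simulated intervals.

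The members and gene lists were chosen with earlier results of these data known. All 10 members were named, with their strongest distal H3K27Ac peaks, genes of the lists, and neighbours with MOF at the promoter. Promoters were shown for up to 3 members without MOF in a fixed order. Other genes and the pair of distal sequences were chosen after their values were seen. Alternatives varied the window, the flank, the start, the overlap and the part of the list used (the 50% of peaks with the highest MOF score, or the highest −log10 q-value in the other lists).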

Additional observations from a re-analysis of the deposited data

How the results depend on the processing

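No paired analysis was possible because only 1 peak list per antibody was used and the counts came from no test. Of the 58 values for the members recomputed under another setting, 46 stayed within 1.5 times the reported value and 12 did not. Those that stayed include every Rfx2 count, which was 0 under each setting, and changes as large as MOF within 50 kb from 9 to 6 members. With peaks assigned by their centre, promoters with H3K4me3 fell from 10 to 6 of 10 members, and from 17 to 8, 21 to 9 and 25 to 8 in the other follicle factors, epidermal factors and signalling genes, while the share of all genes fell from 54.0% to 25.5%. H3K27Ac fell from 7 to 4 members (all genes 44.1% to 26.2%), and MOF from 9 to 4 of the other follicle factors (all genes 23.7% to 14.7%). The higher 50% of each list was taken by score for MOF and by −log10 q-value for the others. H3K4me3 was then kept at 4 promoters of members (Sox9, Foxi3, Dlx3 and Cux1), 7 other follicle factors, 12 epidermal factors and 19 of 29 signalling genes, against 45.3% of all genes. At the promoter the members then no longer exceeded all genes. H3K4me3 was also kept in 4 gene bodies of members, with no share of all genes given here, and the median H3K4me3 length of the members was 0 bp. MOF was then kept at 1 member (Nfatc1), 5 other follicle factors, 2 epidermal factors and 2 signalling genes, against 14.6% of all genes, and distal H3K27Ac peaks numbered 7. With 1 start per gene MOF was at 1 member (Dlx3), against 22.5% of all genes. Flanks of 25 kb left 5 members with MOF, and the share of all genes with those flanks is not given here, so the fall cannot be read as particular to the members. Outside H3K4me3 lay 15 distal H3K27Ac peaks. In settings chosen after seeing the data, the higher 50% by fold enrichment left H3K4me3 at 0 members, against 37.5% of all genes, and H3K27Ac at 3 (Foxi3, Foxn1 and Cux1), against 35.7%, the inner part of the MOF regions left 3 epidermal factors with MOF, and GENCODE starts left H3K4me3 at 8 members, without Lhx2 and Msx2. The causes were not tested. A window of 2.5 kb on either side added Msx2 to the members with MOF. Sites below the peak caller's threshold cannot be told apart from sites without the mark.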
